A study of Mus musculus with 2 samples.

Results

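The genes Nos2, Arg1, Acod1, Ass1, Slc7a2 and Saa3 were read in single immune cells from inflamed mouse colon. They encode the inducible nitric oxide synthase, arginase 1, the itaconate-forming enzyme, argininosuccinate synthase, an arginine importer and an acute-phase protein. The members were taken by symbol, and all 6 were found among the 32285 genes of both count matrices. The cells had infiltrated the colon during experimental colitis, which is bowel inflammation set off on purpose. Both groups are of the C57BL/6 strain: the group labelled WT has 1 library, and so has the group labelled CKO. The series title speaks of loss of RPA1 and of dying T cells, but the labels do not tie the CKO to a gene. The sources used here do not give the deleted exons, the Cre line, the agent that induced colitis, the age of the mice or how many mice went into a library.

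Nitric oxide synthase and arginase 1 draw on the same substrate. The synthase turns arginine into nitric oxide and citrulline, and arginase 1 splits arginine into ornithine, which feeds polyamines and proline, and urea. SLC7A2 carries arginine into the cell, and argininosuccinate synthase takes the first step that rebuilds arginine from citrulline. ACOD1 makes itaconate, which slows succinate dehydrogenase, from an intermediate of the citric acid cycle. SAA3 is a serum amyloid A protein made locally by macrophages and stromal cells. In textbook terms, Nos2 marks macrophages exposed to interferon-gamma and bacterial products, Arg1 marks macrophages exposed to interleukin-4, and group 2 innate lymphoid cells (ILC2) express Arg1 without such exposure.

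In the GRCm38 genome with the GENCODE vM21 annotation, Nos2 (ENSMUSG00000020826) lies on the plus strand of chromosome 11 from 78920787 to 78960254. Arg1 (ENSMUSG00000019987) lies on the minus strand of chromosome 10 from 24915221 to 24927484. Acod1 (ENSMUSG00000022126) lies on the plus strand of chromosome 14 from 103046977 to 103056573. Ass1 (ENSMUSG00000076441) lies on the plus strand of chromosome 2 from 31470207 to 31520672. Slc7a2 (ENSMUSG00000031596) lies on the plus strand of chromosome 8 from 40862396 to 40922308. Saa3 (ENSMUSG00000040026) lies on the minus strand of chromosome 7 from 46711998 to 46715700. The libraries count 3′ ends, so a value is for the gene and does not tell its transcripts apart.

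RefSeq promoters of GRCm38.p6 were matched for 3 of the 6 genes, Acod1, Ass1 and Saa3, and were not matched for Nos2, Arg1 and Slc7a2. Those of Saa3 and Acod1 are printed because the results on macrophage clusters and on neutrophils turn on them. Each run covers 200 bases that begin 250 bases upstream of the start site, 5′ to 3′ on the strand of the gene, with capitals for motif matches.
Saa3, chr7:46715727-46715926, minus strand: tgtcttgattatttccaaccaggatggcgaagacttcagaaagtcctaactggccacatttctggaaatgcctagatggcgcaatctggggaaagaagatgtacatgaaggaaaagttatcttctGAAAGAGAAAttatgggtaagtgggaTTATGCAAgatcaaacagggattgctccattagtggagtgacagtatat
Acod1, chr14:103046762-103046961, plus strand: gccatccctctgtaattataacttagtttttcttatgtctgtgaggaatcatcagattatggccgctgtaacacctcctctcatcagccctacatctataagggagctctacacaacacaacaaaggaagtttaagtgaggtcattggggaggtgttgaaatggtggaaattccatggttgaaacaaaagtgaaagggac
The Saa3 run held the interferon-stimulated response element on the forward strand and TTGCNNAA, the letters bound by the C/EBP family, on the reverse strand. The matches lay 125 to 116 and 99 to 92 bases upstream of the start and did not overlap. In the same window of 32851 promoters, that element was found in 2.40% and TTGCNNAA in 8.11% on either strand. The other motifs searched were TATAAA on the forward strand (5.02% of promoters) and, on both strands, the NF-kB consensus (3.13%), TTCNNNGAA (5.76%), the STAT6 motif (4.78%) and TGANTCA (5.57%). None of the 7 was found in the Acod1 run, which says only that these letters are not in this window.

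The WT library held 2972 barcodes and 18627050 unique molecular identifiers (UMIs, each 1 captured transcript), and the CKO library held 11311 and 57740083. Median depth was 4083 and 3338 UMIs, 2924 and 10942 cells were retained, and 6 barcode sequences occurred in both libraries. Cells were clustered without the 6 members and classes were named from marker genes, so every class name means cells resembling that type. Defining markers were concentrated in their classes: Csf1r was at 307 and 308 UMIs per 1000000 of the class total (CPM) in the monocyte and macrophage class against 6.20 and 26.7 elsewhere, S100a8 at 20311 and 54372 in neutrophils against 173 and 1118, Flt3 at 94.9 and 80.3 in dendritic cells against 5.14 and 4.17, and Gata3 at 1061 and 1056 in ILC2 against 20.4 and 16.5. The basophil class had Mcpt8 at 535 and 1080 CPM, but Prss34, another protease of basophils, was at 0 there. Rpa1 was at 43.7 CPM in WT T cells and 59.9 in CKO T cells. Which part of that gene was deleted is not given, so this 3′ reading checks nothing about the labels.

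Neither group has a second library, so no difference between them could be tested, and the label cannot be told apart from the animals and the preparation. Intervals are 95% intervals, exact Poisson for sums, exact binomial for shares and exact conditional for ratios, and cover counting error only. A share of 0 is given with the limit that 3 cells would set, which bounds cells with a UMI and not cells that express the gene. Log2 ratios are of CKO over WT. The WT library had 21 monocyte and macrophage cells (0.718% of its cells) and the CKO library 712 (6.51%), so each WT value in this class rests on few cells. Neutrophils numbered 182 and 1803, dendritic cells (DC) 26 and 339, ILC2 103 and 269, and B cells 1083 and 4634. In the WT library 714 cells, and in the CKO library 1040, fell in clusters with markers of more than 1 type and entered no class.

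At Leiden resolution 1, the main clustering, Nos2 was highest in the monocyte and macrophage class of both libraries. In WT cells it had 31 UMIs, or 161 CPM (109 to 229), and in CKO cells 1736 UMIs, or 290 CPM (277 to 304). The CKO level was 1.80-fold higher, a log2 ratio of 0.85 (0.34 to 1.41). In the WT library only 4 of 21 cells held a Nos2 UMI, and the 3 highest of them held 14, 12 and 4. Without the top cell of each library the levels were 94.6 and 283 CPM and the log2 ratio 1.58. In the CKO library 233 of 712 cells held a Nos2 UMI, with up to 46 in a cell. After each cell was thinned to 1000 UMIs the shares were 9.52% (1.17 to 30.4) and 15.9% (13.3 to 18.8), and these intervals overlap. B cells, which should lack the gene, gave 0 of 1074 in the WT library, which allows a share of up to 0.279%, and 0.109% in the CKO library. Median depth was 9743 and 8435 UMIs in the monocyte and macrophage cells and 4099 and 2979.5 in the B cells.

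Within the class, Nos2 was uneven across clusters. The class split into 4 clusters, each given here by its 2 leading genes that are not members. The Vcan Chil3 cluster (17 WT and 431 CKO cells) was inflammatory monocyte-like, and the C1qa C1qc cluster (3 and 93) was C1q macrophage-like. The Inhba Cfb cluster (1 and 161) and the Prg4 Serpinb2 cluster (0 and 27) met no finer name. Both still shared markers with the named clusters. All 9 inflammatory monocyte markers were detected in the Inhba Cfb cluster, at 12057 CPM in CKO cells against 14330 in Vcan Chil3 cells. The C1q macrophage markers summed to 20054 CPM in Prg4 Serpinb2 cells, with 5 of 10 detected. In CKO C1qa C1qc cells they summed to 7902 CPM, with 6 of 10 detected. In CKO cells Nos2 was at 908 CPM (858 to 960) in the Inhba Cfb cluster, where 114 of 161 cells held a UMI, and that cluster held 43.3% of all Nos2 UMIs of the library. It was at 136 CPM (125 to 149) in Vcan Chil3 cells, 12.7 in C1qa C1qc cells and 15.3 in Prg4 Serpinb2 cells, the last from 1 cell. Although it was left out of the clustering, Nos2 led that cluster's genes by fold and Slc7a2 was among its top 10, as were Arg1 and Saa3 in the Prg4 Serpinb2 cluster. The single WT cell of the Inhba Cfb cluster was the one with 14 UMIs. Its T cell markers summed to 1721 CPM, against 52.6 in the CKO cells of that cluster. Its monocyte and macrophage markers summed to 5083 CPM, against 13153. Whether that barcode held more than 1 cell was not tested. The Vcan Chil3 cluster was the only one of the class with over 3 WT cells. Nos2 was there at 120 CPM (70 to 192) in WT and 136 in CKO cells, a log2 ratio of 0.18 (-0.51 to 0.97). On all cells of the cluster these levels were not told apart. Of the 17 WT UMIs, 12 were in 1 cell. Without the top cell of each library the levels were 38.0 and 131 CPM and the log2 ratio 1.78, so the reading depends on that cell.

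**Figure D1:**
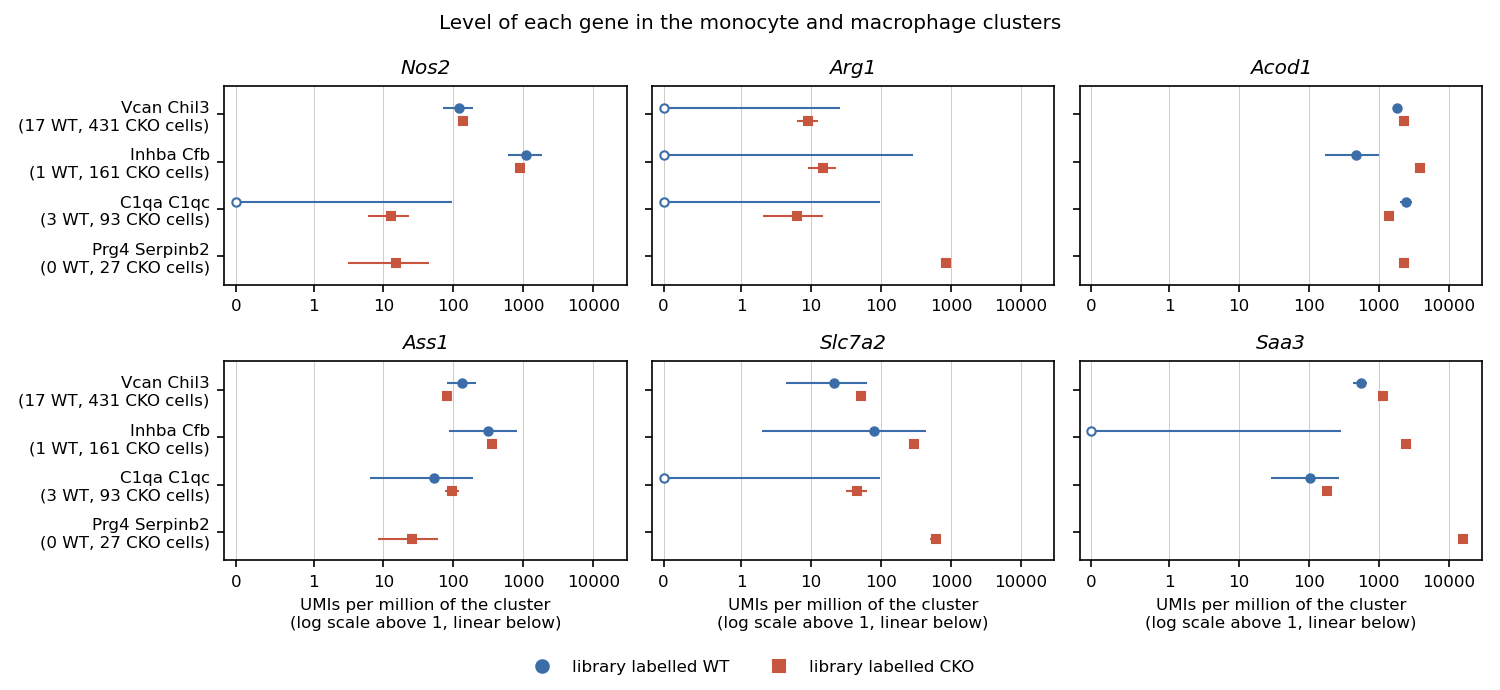
Levels of the 6 genes in CPM (log axis) in the 4 monocyte and macrophage clusters, for the WT and CKO libraries, with 95% counting intervals. In the CKO library Nos2 and Ass1 were highest in the Inhba Cfb cluster (908 and 357 CPM), and Arg1, Slc7a2 and Saa3 in the Prg4 Serpinb2 cluster (843, 603 and 15906 CPM), which had no WT cell.

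Neutrophils came second for Nos2 in the CKO library. There they had 368 UMIs in 179 of 1803 cells, or 70.1 CPM (63.1 to 77.7), and in the WT library 1 UMI in 182 cells, or 2.53 CPM (0.064 to 14.1). The log2 ratio was 4.79 (2.31 to 10.10), with its WT side resting on that 1 UMI. At a finer clustering (Leiden resolution 2), where 13 WT Nos2 UMIs fell in the class, it was 1.11. The WT monocyte and macrophage class then fell from 31 to 5 Nos2 UMIs. In the main clustering 1 of its cells held 12 of these at a depth of 10031 UMIs, against a WT neutrophil median of 2049. Most of the 13 may thus come from that 1 cell, which was not traced. After thinning, 4.86% of CKO neutrophils and 0 of 160 WT neutrophils held a UMI. The Ngp Camp cluster, led by granule protein genes of young neutrophils and with 368 CKO and 0 WT cells, had 154 CPM (135 to 174). The other CKO neutrophil clusters lay between 22.6 and 48.3 CPM. The libraries differed in which clusters made up the class: 96 of 182 WT neutrophils were in the Spp1 Slc2a3 cluster, against 74 of 1803 CKO neutrophils. In that cluster CKO neutrophils had 26.3 CPM, from 5 UMIs in 3 of 74 cells, and WT neutrophils had no Nos2 UMI. Against a floor of 3 counts over the WT cluster the CKO level was at least 1.81-fold higher. At the lower end of the exact conditional interval it was 0.996-fold, so the levels were not told apart there. The part of cluster makeup in the class ratio was not tested beyond these values.

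At the main clustering the order of classes for Nos2 was clear at the top and not below. In the CKO library neutrophils were apart from the monocyte and macrophage class, and epithelial cells (28.8 CPM, 7 UMIs) were apart from neutrophils. Below epithelial cells, ILC3, mast cells and DC each overlapped the class above. In the WT library ILC3 came second with 13.1 CPM from 3 UMIs, apart from the first, and all lower classes overlapped their neighbours. At Leiden resolution 2 the WT monocyte and macrophage class held 5 Nos2 UMIs in 19 cells, and WT neutrophils held 13 in 182. The top of the WT order is therefore not settled. Over all retained cells Nos2 was at 2.21 and 50.8 CPM. In such a sum more cells of a type and more RNA per cell cannot be told apart.

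**Figure D2:**
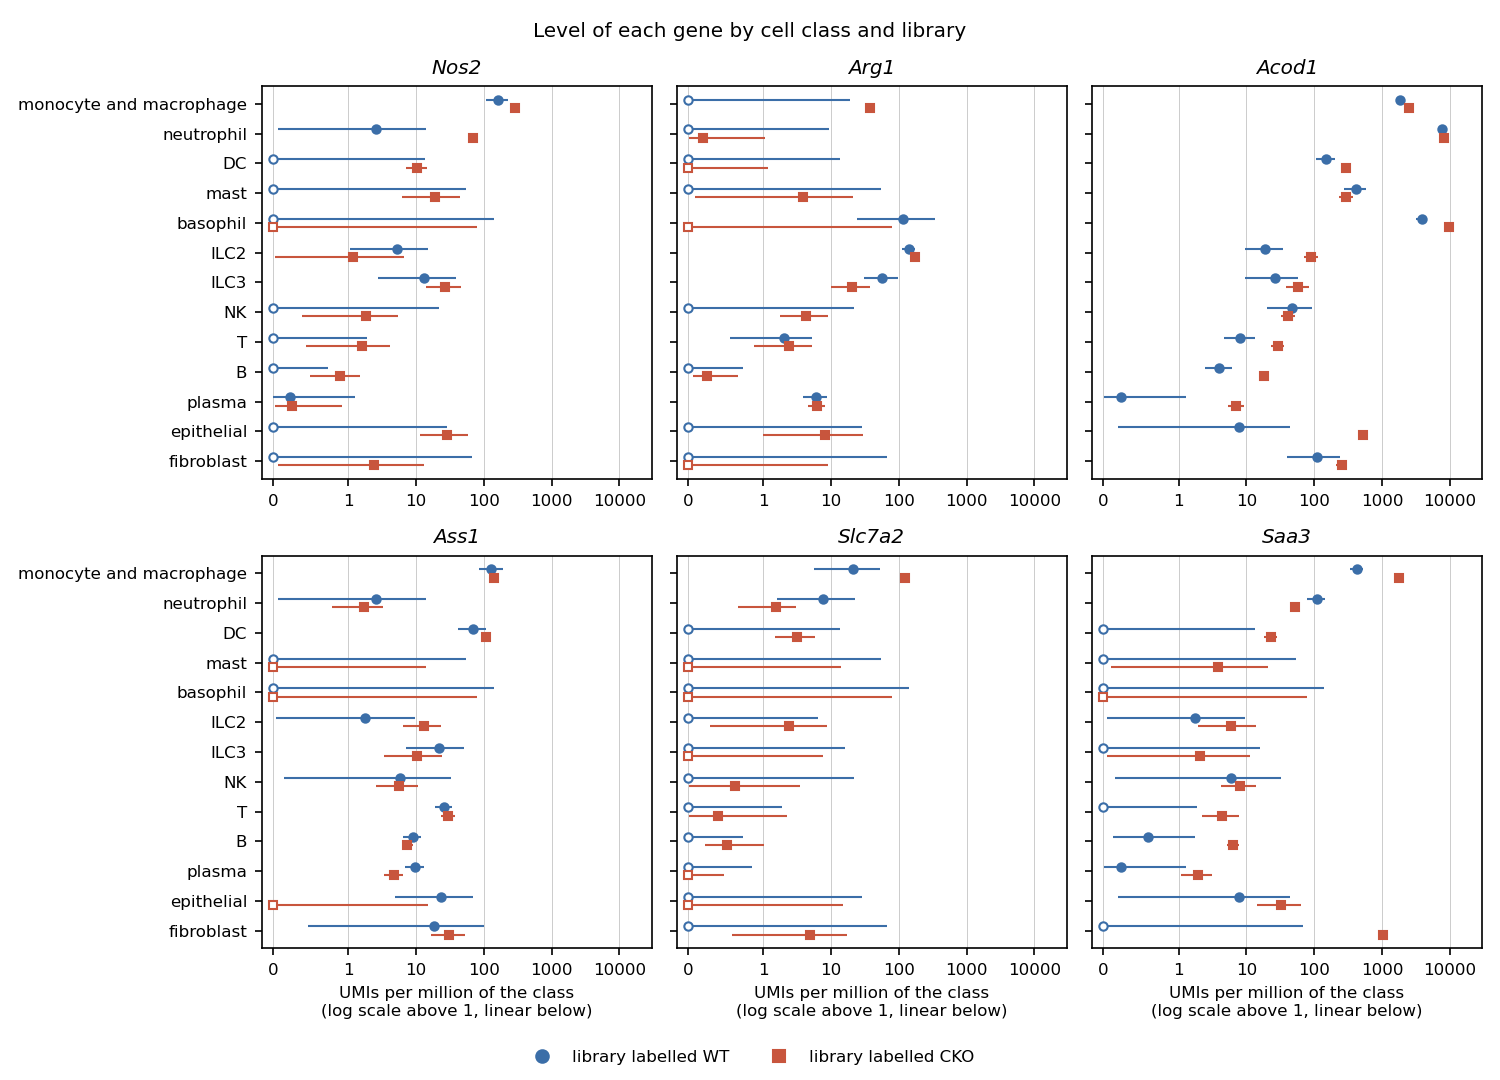
Levels of the 6 genes in CPM (log axis) in each cell class of the WT and CKO libraries, with 95% counting intervals. At the main clustering, Nos2, Ass1, Slc7a2 and Saa3 were highest in the monocyte and macrophage class of both libraries, Arg1 in ILC2 of both, and Acod1 in WT neutrophils (7701 CPM) and CKO basophils (9716 CPM). The top of the WT order for Nos2 was not settled at Leiden resolution 2.

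Arg1 followed another order, with ILC2 first in both libraries. WT ILC2 had 81 UMIs in 42 of 103 cells, or 141 CPM (112 to 175), and CKO ILC2 had 144 in 75 of 269 cells, or 170 CPM (144 to 200). The log2 ratio was 0.28 (-0.13 to 0.69), so the ILC2 levels were not told apart. Thinned shares were 14.7% (8.47 to 23.1) and 11.4% (7.78 to 16.0) at class median depths of 5173 and 3000 UMIs, and no thinned B cell of either library held an Arg1 UMI, which at 1074 and 4580 cells allows a share of up to 0.279 and 0.0655%. The Arg1 UMIs were spread over ILC2, with at most 7 in a cell.

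In the monocyte and macrophage class, the 21 WT cells held no Arg1 UMI, which allows a level of up to 19.2 CPM (the exact Poisson limit) and a share of cells with a UMI of up to 14.3%. The 712 CKO cells held 223 UMIs, or 37.3 CPM (32.5 to 42.5), in 36 cells. Against a floor of 3 counts over the WT class (15.6 CPM), Arg1 was at least 2.39-fold higher in CKO cells, and 1.93-fold at the lower end of the exact conditional interval. Of the 223 UMIs, 165 were in the 27 cells of the Prg4 Serpinb2 cluster, at 843 CPM (719 to 982) with 17 cells positive and a median of 3 UMIs. The Inhba Cfb cluster was at 14.8 CPM, Vcan Chil3 at 9.03, of which 1 cell held 22 of 33 UMIs, and C1qa C1qc at 6.37. Each of these was under the 15.6 CPM floor, so the bound rests on the Prg4 Serpinb2 cluster. Arg1 was therefore concentrated in a cluster that the WT library did not contain, and the WT library had too few cells to show whether it lacks it.

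Neutrophils and DC were at or near 0 for Arg1. CKO neutrophils had 1 Arg1 UMI in 1803 cells and WT neutrophils none, and no DC of either library had one, which allows a share of cells with a UMI of up to 0.885% in CKO and 11.5% in WT DC. ILC3 were at 56.8 CPM (30.2 to 97.1; 13 UMIs) in the WT and 20.4 (9.79 to 37.6; 10 UMIs) in the CKO library, a log2 ratio of -1.48 (-2.82 to -0.17). Plasma cells were at 5.93 and 6.12 CPM. In the WT library ILC2, basophils (3 UMIs in 1 of 4 cells) and ILC3 overlapped their neighbours, and in the CKO library ILC2 stood apart from the monocyte and macrophage class, which overlapped ILC3.

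Single myeloid cells were then read for Nos2 and Arg1 together. Among 712 CKO monocyte and macrophage cells, 222 held only Nos2, 25 only Arg1, 11 both and 454 neither. Arg1 was found in 4.72% (2.38 to 8.29) of cells with Nos2 and 5.22% (3.41 to 7.61) of cells without it. At equal depth, 698 cells thinned to 1000 UMIs, 110 held only Nos2, 13 only Arg1 and 1 both, and Arg1 was found in 0.901% (0.0228 to 4.92) and 2.21% (1.18 to 3.76) of cells with and without Nos2. Cells with Nos2 and cells without it did not differ in their Arg1 share beyond the counting intervals at either depth. None of 1803 CKO neutrophils held both, and WT monocyte and macrophage cells held no Arg1. Over all 2761 thinned CKO myeloid cells the shares were 0.503 and 0.507%, the first from 1 of 199 cells. Without thinning they were 2.61% (1.31 to 4.62) and 1.07% (0.70 to 1.56). This pool mixes classes, as 1728 of the thinned cells were neutrophils and none of those held Arg1.

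By cluster, cells with Nos2 and cells with Arg1 were unevenly placed. In the Inhba Cfb cluster 109 cells held only Nos2, 1 only Arg1 and 5 both. In the Prg4 Serpinb2 cluster 0 held only Nos2, 16 only Arg1 and 1 both. The Vcan Chil3 cluster had 107 with only Nos2, 4 with only Arg1 and 5 with both. The class-wide shares above therefore add a cluster rich in Nos2 to one rich in Arg1, and the clusters were made from other genes of the same cells, so this is a description.

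**Figure D3:**
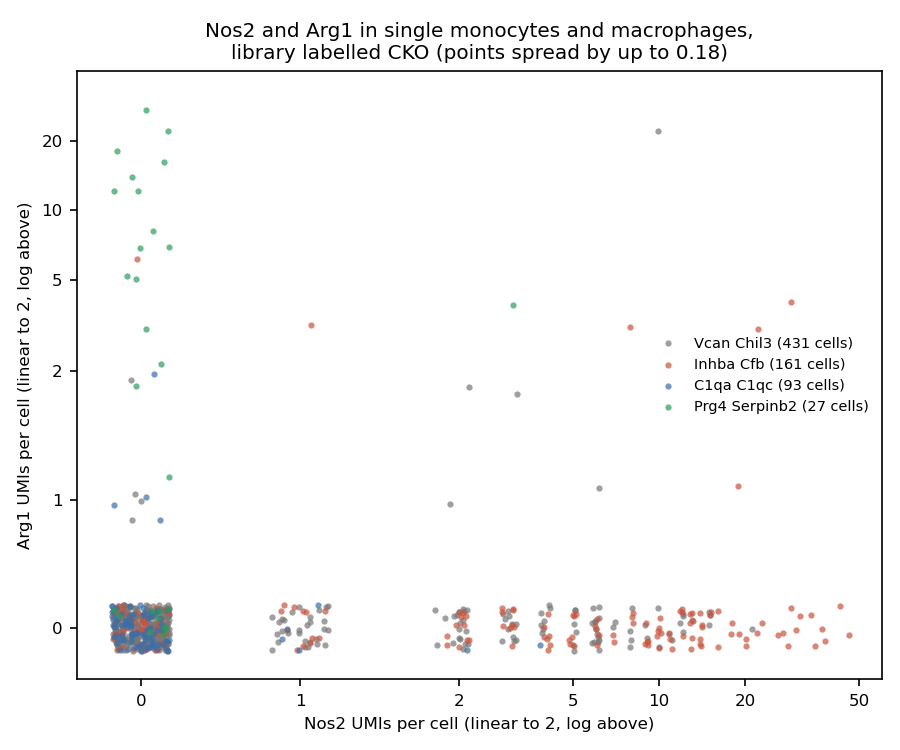
Nos2 against Arg1 UMIs in single monocyte and macrophage cells, each point a cell, marked by cluster. In the CKO library 222 cells lay on the Nos2 axis, 25 on the Arg1 axis and 11 away from both, and the highest counts were 46 Nos2 and 27 Arg1 UMIs.

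The 11 cells with both genes had a median depth of 10470 UMIs, against 9280.5 in cells with only Nos2, 8750 with only Arg1 and 7883.5 with neither. An Inhba Cfb cell held 29 Nos2 and 4 Arg1 UMIs, and a Vcan Chil3 cell held 10 and 22. Over all retained cells 19 held both, of which 5 were in a mixed cluster led by Ifng and Rora. A cell of that cluster had 20 Nos2 and 58 Arg1 UMIs together with 17 UMIs of T cell markers and 65 of monocyte and macrophage markers. The part of barcodes with more than 1 cell in these counts was not tested.

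The other members were read in the same thinned CKO monocyte and macrophage cells, split by Nos2 and by Arg1. Of cells with Nos2, 90.1% held Acod1, against 72.6% of cells without it, and 24.3% held Ass1, against 9.37%. Saa3 was found in 40.5 and 23.5% and Slc7a2 in 16.2 and 7.33% of cells with and without Nos2. Every one of these 4 members was thus more often seen beside Nos2. Of the 14 cells with Arg1, 42.9% (17.7 to 71.1) held Slc7a2, against 8.04% without Arg1, and 64.3% held Saa3, against 25.4%. Ass1 gave 7.14 and 11.8%, which at 14 cells is not told apart. Cells with either gene come mostly from 1 cluster each, so these shares and the cluster levels are not separate evidence.

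Acod1 was detected in nearly every neutrophil. WT neutrophils had 3045 UMIs in 177 of 182 cells, or 7701 CPM (7430 to 7980), and CKO neutrophils 43866 in 1799 of 1803 cells, or 8357 (8279 to 8436). The median neutrophil held 13 and 22 UMIs, and neutrophils held 66.3 and 61.7% of all Acod1 UMIs. The log2 ratio was 0.12 (0.06 to 0.17), a small difference that reads as 0.36 when the class is scaled to its median gene, since that scaling shifts neutrophil ratios by 0.24. By cluster, CKO levels ran from 5115 CPM in the Ngp Camp cluster to 11633 in the Rsad2 Ifit2 cluster, whose leading genes are induced by interferon, and WT levels from 6337 in Csf1 Il23a to 9672 in Rsad2 Ifit2. Clusters with cells of both libraries gave log2 ratios of 0.72 (0.37 to 1.10) in Csf1 Il23a with 6 WT cells, 0.27 in Rsad2 Ifit2, 0.12 in Egr1 H2-Q10, 0.24 in Spp1 Slc2a3, 0.07 in Hcar2 Ankrd33b with 4 WT cells and -0.17 (-0.33 to 0.00) in Cstdc4 Rdh12. The intervals of the last 2 included 0.

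**Figure D4:**
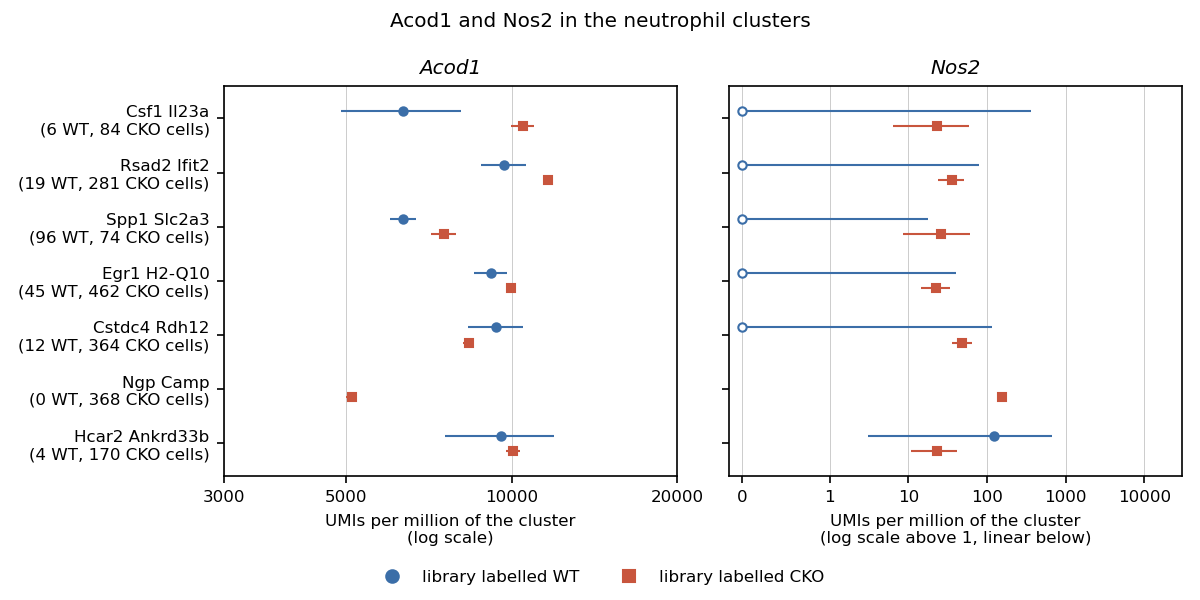
Nos2 and Acod1 levels in CPM in the 7 neutrophil clusters of the WT and CKO libraries, with 95% counting intervals. The Ngp Camp cluster, with 368 CKO and no WT cells, had the highest CKO Nos2 level (154 CPM) and the lowest CKO Acod1 level (5115 CPM).

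Basophils were few but uniformly positive. All 4 WT cells and all 17 CKO cells held Acod1, with 101 UMIs at 3858 CPM (3142 to 4688) and 450 at 9716 (8839 to 10657). The median cell held 28.5 and 26 UMIs while median depth was 6766.5 and 2651 UMIs, and the log2 ratio of the levels was 1.33 (1.02 to 1.66). The level, a share of each cell's UMIs, was thus higher in the library with the shallower basophils, while Acod1 UMIs per cell were not. The 12 neutrophil markers summed to 688 and 1922 CPM in these cells, against 85175 and 171917 in neutrophils, and S100a8 alone was at 0 and 151.

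In the monocyte and macrophage class Acod1 was at 1850 CPM (1663 to 2052) in WT and 2514 (2474 to 2554) in CKO cells, with 18 of 21 and 665 of 712 cells positive, and the log2 ratio was 0.44 (0.29 to 0.60). Within the Vcan Chil3 cluster it was 0.34, from 1803 and 2276 CPM. The 12 neutrophil markers summed to 10168 and 13834 CPM in the class and to 7324 and 13887 in Vcan Chil3 cells, and their part in the Acod1 values was not tested. In C1qa C1qc cells it was -0.83, from 2485 CPM in 3 WT cells, 1 of which held 56 of 95 UMIs, and 1401 CPM in 93 CKO cells. The Inhba Cfb cluster was highest in the CKO library at 3831 CPM.

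DC and lymphocytes held Acod1 at low levels. In DC it was at 150 CPM (107 to 203) in WT, where 37 of 41 UMIs came from 1 cell, and 292 (273 to 311) in CKO. The log2 ratio of 0.96 (0.51 to 1.45) became 4.05 without the top cell of each library, and turned to -0.12 when each cell was called by its own markers, so no direction is held in DC. In the DC cluster led by Cd209a and Klrd1 the levels were 33.4 and 429 CPM. Acod1 was at 8.13 and 29.0 CPM in T cells, 3.95 and 18.3 in B cells and 19.1 and 89.9 in ILC2. S100a8 moved in the same direction in each of these classes: from 230 to 827 CPM in DC, 12.2 to 61.1 in T cells, 8.50 to 71.2 in B cells and 5.21 to 111 in ILC2. It did not in NK cells, with Acod1 from 47.0 to 41.2 CPM and S100a8 from 11.8 to 57.9. Mast cells also had less Acod1 (410 to 295) with more S100a8 (512 to 4024). Fibroblasts had more Acod1 (109 to 256) with less S100a8 (931 to 650). The remaining named classes had more of both in the CKO library. The 12 neutrophil markers summed to 105 and 278 CPM in B cells, 356 and 548 in T cells, 207 and 577 in ILC2 and 1956 and 3707 in DC. Their part in the Acod1 values of these classes, as RNA from outside the cell, was not tested.

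**Figure D5:**
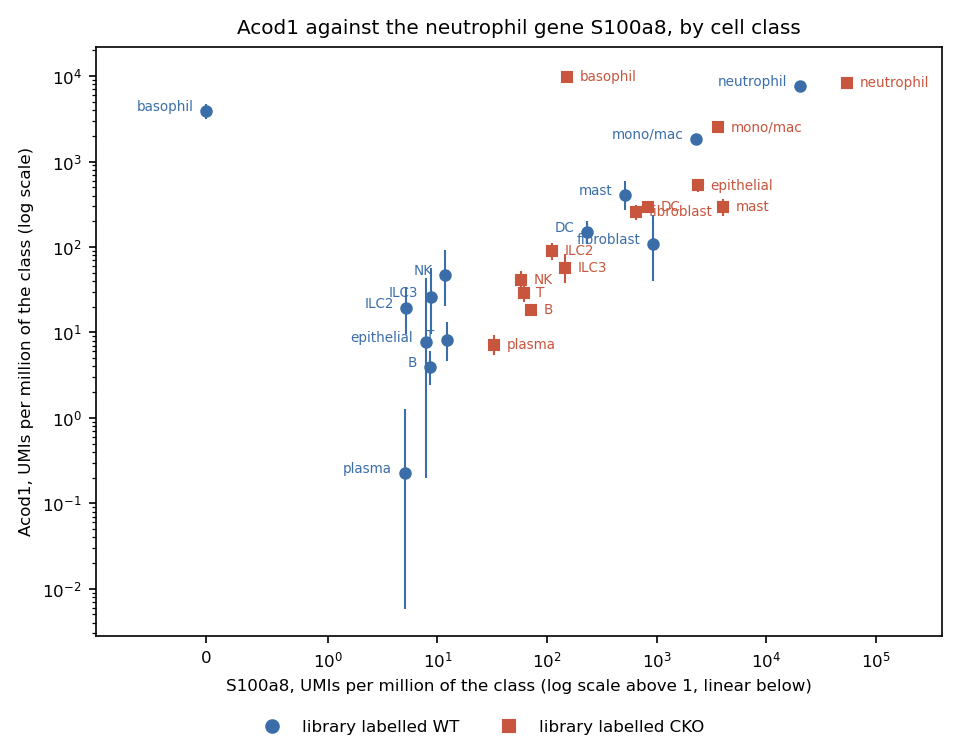
Acod1 against the neutrophil gene S100a8 in CPM (log axes), each point a cell class of the WT or CKO library. B cells, T cells and ILC2 had more of both in the CKO library, and basophils had 3858 and 9716 CPM of Acod1 with S100a8 at 0 and 151 CPM. NK and mast cells had less Acod1 with more S100a8 in the CKO library, and fibroblasts the reverse.

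Ass1, which starts the rebuilding of arginine from citrulline, was found in the monocyte and macrophage class and in DC. The WT monocyte and macrophage cells had 25 UMIs in 12 of 21 cells, or 130 CPM (84.1 to 192), and the CKO cells 860 in 324 of 712, or 144 CPM (134 to 154). The log2 ratio was 0.15 (-0.43 to 0.78), so they were not told apart. In CKO cells the Inhba Cfb cluster was highest at 357 CPM (326 to 391) with 127 of 161 cells positive, followed by C1qa C1qc at 96.8, Vcan Chil3 at 81.3 and Prg4 Serpinb2 at 25.5. Within the Vcan Chil3 cluster Ass1 was at 134 CPM (80.9 to 210) in WT and 81.3 (72.3 to 91.1) in CKO cells. The log2 ratio there was -0.72 (-1.39 to 0.03), of the other sign, and its interval also included 0. The levels were thus not told apart in that cluster either.

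DC had 69.4 CPM of Ass1 (41.8 to 108) in the WT and 107 (96.2 to 119) in the CKO library, a log2 ratio of 0.63 (-0.04 to 1.38). CKO DC of the Fscn1 Cacnb3 cluster, whose leading gene Fscn1 marks mature migratory DC, were at 219 CPM (172 to 274) with 28 of 48 cells positive, and the WT library had no such cell. T cells were at 25.9 and 29.8 CPM, and neutrophils at 2.53 and 1.72. The monocyte and macrophage class and DC overlapped in the WT library and were apart in the CKO library.

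Slc7a2, the arginine importer, was close to restricted to the monocyte and macrophage class among the named classes of the CKO library. There it had 743 UMIs in 175 of 712 cells, or 124 CPM (115 to 133), which was 75.5% of its UMIs in that library. The WT cells had 4 UMIs in 3 cells, or 20.8 CPM (5.66 to 53.2), and the log2 ratio was 2.58 (1.22 to 4.46). Every other named class of the CKO library was at 4.78 CPM or below. In CKO cells the Prg4 Serpinb2 cluster was at 603 CPM (499 to 722) with 18 of 27 cells positive, and the Inhba Cfb cluster at 298 (270 to 329) with 72 of 161. Slc7a2 was thus high in the cluster rich in Arg1 and in the cluster rich in Nos2. In Vcan Chil3 cells it was at 21.2 CPM from 3 UMIs in WT and 51.5 in CKO cells, a log2 ratio of 1.28 (-0.29 to 3.57).

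Saa3 was unevenly spread over cells. WT monocyte and macrophage cells had 82 UMIs in 7 of 21 cells, or 426 CPM (339 to 529), with 47 of the 82 in 1 cell. CKO cells had 10753 in 294 of 712, or 1797 CPM (1763 to 1832), with up to 787 in a cell. The log2 ratio was 2.08 (1.76 to 2.41), and 3.10 without the top cell of each library. Thinned shares were 19.0% of WT and 26.2% of CKO cells, against 0 and 0.633% of B cells.

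In CKO cells Saa3 was at 15906 CPM (15352 to 16475) in the Prg4 Serpinb2 cluster, where 25 of 27 cells were positive with a median of 74 UMIs. These 27 cells held 21.2% of all Saa3 UMIs of the library. The Inhba Cfb cluster followed at 2466 CPM, Vcan Chil3 at 1141 and C1qa C1qc at 185. Within Vcan Chil3 the WT cells were at 551 CPM (436 to 688) and the log2 ratio was 1.05 (0.73 to 1.39). Of the 78 WT UMIs there, 47 were in 1 cell. Without the top cell of each library the levels in that cluster were 240 and 1090 CPM and the log2 ratio 2.18.

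Outside that class Saa3 was seen in CKO fibroblasts, at 1052 CPM (956 to 1155) in 9 of 44 cells. A single fibroblast held 310 of the 440 UMIs and the level was 318 CPM without it, while the 3 WT fibroblasts held none. Against the floor of 3 counts the fibroblast level was at least 19.2-fold higher in the CKO library with that cell, 15.6-fold at the lower end of its interval, and at least 5.80-fold higher without it. Neutrophils ran the other way, with 109 CPM (78.7 to 146) in WT and 53.0 (46.9 to 59.6) in CKO, a log2 ratio of -1.04 (-1.51 to -0.54). That direction rests on 1 WT neutrophil with 30 of 43 UMIs: without the top cell of each library the levels were 33.1 and 48.8 CPM and the log2 ratio 0.56.

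Members were also counted against all genes of the same class with at least 20 UMIs over both libraries, a member or gene being called at 2-fold or more. In the monocyte and macrophage class 3 of 6 members were called higher in the CKO library (Slc7a2, Saa3 and, by its bound at the floor, Arg1), where 7.5% of 8504 genes were, and 0 were called lower, where 9.7% were. By the lower end of its interval (1.93-fold) Arg1 would not be called. Nor would it be without the Prg4 Serpinb2 cluster, since every other cluster of the class was under the floor. In neutrophils 3 members were read, with Nos2 called higher (9.82% of 6270 genes) and Saa3 lower (13.5%), the latter turning to a log2 ratio of 0.56 without the top cells. In DC 1 of 4 members read was called higher, Saa3 by its bound of 2.08-fold (11.7% of 7896 genes), and none lower (5.33%). That bound was 1.65-fold at the lower end of its interval and 1.15-fold without 1 cell that held 33 of the 73 UMIs, so the call rests on that cell. In ILC2 2 members were read, with Acod1 called higher (4.31% of 5377 genes) and none lower (3.53%). In the Vcan Chil3 cluster 2 of 6 members were called higher, Slc7a2 and Saa3 (8.57% of 7386 genes), and none lower (9.59%). With so few members these counts are given beside the background only.

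The other genes of these pathways were taken from 6 lists of 81 genes on arginine supply, nitric oxide synthases and cofactors, the arginase branch, itaconate, serum amyloid A and inducing signals. In the monocyte and macrophage class 67 were read, 4 of them at least 2-fold higher and 5 lower in CKO cells, with a median log2 ratio of 0.05 against 0.00 over all genes. Those higher were Suclg1, a subunit of succinyl-CoA ligase (1.87), Slc38a9, a lysosomal arginine sensor (1.38, from 1 WT UMI), Cs, citrate synthase (1.26), and the stress factor Atf3 (1.07, from 62.3 to 131 CPM). Among those lower were the transcription factor Cebpd (-1.44, from 88.3 to 32.6 CPM), Spr of tetrahydrobiopterin synthesis (-1.34), Azin1, which spares ornithine decarboxylase (-1.10, from 208 to 96.8 CPM), and Amd1 of polyamine synthesis (-1.08). The intervals of Slc38a9, Spr and Amd1 included 0. The pathway lists therefore had no common direction in this class.

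In neutrophils 49 list genes were read, with 4 at least 2-fold higher and 5 lower and a median of -0.28 against -0.09 over all genes. Scaled to the median gene, 5 were higher and 1 lower, so this split depends on the scaling. On the CPM scale, Oaz2, an inhibitor of ornithine decarboxylase, had a ratio of 1.97 and the formyl peptide receptor Fpr1 one of 1.68 (from 268 to 858 CPM). Odc1, ornithine decarboxylase, had -1.54 (from 346 to 119 CPM) and Pts of tetrahydrobiopterin synthesis -1.13 (from 200 to 91.4 CPM). In DC 64 genes were read, 5 higher and 1 lower, and among them argininosuccinate lyase, Asl, was at 1.68 (0.09 to 3.98, from 3 WT UMIs) and the isocitrate dehydrogenase gene Idh2 at -1.08 (-1.83 to -0.24). In ILC2 41 were read, 1 higher (Spr, 2.25) and 2 lower (Nosip, -1.23, and Suclg2, -1.36). List medians in DC and ILC2 were 0.04 and -0.05, against 0.04 and -0.03 over all genes.

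Among CKO monocyte and macrophage clusters, the pathway genes below were chosen after their values were seen. Slc7a8, a carrier of neutral amino acids, was at 153 CPM in the Inhba Cfb cluster against 35.8 to 62.4 in the other 3. The serum amyloid A receptor Fpr2 was at 510 CPM in Inhba Cfb cells against 152 to 240 elsewhere. In Prg4 Serpinb2 cells Acly, which splits citrate, was at 194 CPM against 46.8 to 56.0, and Tlr2 was at 695 against 257 to 521. Arg2, the mitochondrial arginase, had another order from Arg1: it was at 250 CPM in Inhba Cfb, 238 in Vcan Chil3, 188 in C1qa C1qc and 97.1 in Prg4 Serpinb2 cells. Gch1, which starts synthesis of the cofactor of nitric oxide synthases, lay between 122 and 250 CPM in all 4. Nos1, the neuronal synthase, was at 0 in all 4 clusters, and Saa1 had 3, 7, 0 and 5 UMIs in Vcan Chil3, Inhba Cfb, C1qa C1qc and Prg4 Serpinb2 cells.

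Likeness between 2 genes was measured as Pearson's r of log2(CPM + 10) over 20 library and class sums with at least 20 cells. Each r thus rests on 20 points, and each member was compared among 12522 genes. Points of 1 library share its depth and its free RNA, so r is a description. Nos2 was most like Chil3 (0.90), Apoc1 (0.89), Mfsd7a (0.87), Siglec1 and Serpinb2. Arg1 was most like Jag1 (0.90), Il17rb (0.88), Npnt, Hey1 and Mlf1. Acod1 was most like Rab20, Clec4d (both 0.98), Slc16a3, Slc7a11 and Snx10. Ass1 was most like Mcub (0.92), Npc2, Spint1, Psmb8 and Ocstamp. Slc7a2 was most like Fabp4 (0.97), Prtn3, Apoc1, Ms4a8a and Serpinb8, and Saa3 was most like C3 (0.95), Dram1, Plcb1, Fam20c and Rhou. Between members r was highest for Slc7a2 with Saa3 (0.82) and for Nos2 with Slc7a2 (0.78), while Nos2 with Arg1 gave 0.11.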

How the data were processed

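The authors deposited UMI counts per gene and cell barcode, whole numbers without normalization, for 1 library labelled WT and 1 labelled CKO. Cell Ranger 6.0.1 made them, per the file headers. The submitters' processing notes give another version, Cell Ranger 5.0.0, beside mm10 and Seurat 3.2.3. No source used here says whether free RNA was removed before deposit.

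Cell barcodes with under 200 genes (11 and 36) or over 20% mitochondrial UMIs (42 and 130) were left out, and Scrublet marked 1 (0.0342%) and 213 (1.91%) doublets, below the expected 2.34 and 8.92%. Marked doublets were left out. Cells were clustered with scanpy 1.11.5 (2000 variable genes, 30 components, 15 neighbours, Leiden resolution 1; 1500 and 20 within 3 compartments) without the members. A cluster took a class name from at least 3 detected markers with no other class ahead among its top 10 genes, a rule set after seeing the data. Members, marker lists and pathway lists were chosen with earlier results of these data known.

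Counts were summed per library and class and divided by the class total (CPM). Against 0 counts a floor of 3 counts over the class gave a bound. Shares of cells were read after thinning each cell to 1000 UMIs. Named genes were the 6 members, up to 3 list genes per class with the largest ratios and the 5 most like genes; some list genes are not reported here. On simulated sums of monocyte and macrophage depth (8504 genes), 88% of genes altered 4-fold, 35% altered 2-fold and 12.2% of unaltered genes were read at 2-fold. Alternatives were the Leiden resolution, the mitochondrial limit, thinning depth, scaling, doublets, class rule, top cells and cluster makeup.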

Additional observations from a re-analysis of the deposited data

Results flagged for a closer look

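The comparisons by class leave out 714 WT and 1040 CKO cells in mixed clusters, 164 and 555 in unnamed clusters, and the barcodes that failed the filters. Summed over the mixed clusters, each member was at a higher level in the CKO library: Nos2 at 81.49 against 0.599 CPM, Arg1 at 21.33 against 10.5, Acod1 at 1243 against 278, Ass1 at 75.66 against 20.4, Slc7a2 at 26.24 against 1.20 and Saa3 at 388.2 against 34.1. The mixed cluster led by Ifng and Rora held 433 Nos2 UMIs, 15.3% of those of the CKO library, in 70 of 269 cells. The makeup of the mixed cells differed, with 20 WT and 269 CKO cells in that cluster. Within it Arg1 was at 45.2 CPM in WT and 34.2 in CKO cells, the other direction from the sum, with a log2 ratio of -0.40 (-1.30 to 0.64). In the mixed cluster led by Iglc1 and Cd79a it was at 20.8 CPM from 3 WT UMIs and 4.48 CPM from 5 CKO UMIs. In the unnamed clusters Nos2 was at 7.868 CPM and Saa3 at 17.31 in the CKO library with no UMI in the WT library, and Acod1 was at 132.2 against 14.1. In barcodes left out by the filters Acod1 was at 477.5 CPM in the CKO and 54.4 in the WT library. The difference between libraries in these cells was not tested.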

How the results depend on the processing

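Over 28 results and 205 alternatives, 145 values stayed within the counting interval (for counts of genes, within 1.5 times), and the rest did not. The sign changed under 3 alternatives of 2 results: Acod1 in DC read -0.12 when each cell was called by its own markers, and Ass1 in the monocyte and macrophage class, whose interval included 0, read -0.72 with clusters weighted alike and -0.52 without the Inhba Cfb cluster. In the monocyte and macrophage class the log2 ratio of Nos2 was 3.28 at Leiden resolution 2, where the WT class had 19 cells with 5 Nos2 UMIs, and 3.72 with cells called by their own markers, 1.58 without the top cell of each library, 0.18 with clusters weighted alike and 0.22 without the Inhba Cfb cluster. That of Saa3 was 3.31, 3.23, 3.10 and 1.05 under the first 4 of these, 2.50 as a mean over cells and 1.63 without the Prg4 Serpinb2 cluster. That of Acod1 was 0.22 at resolution 2, 0.60 as a mean over cells and 0.13 without the Inhba Cfb cluster. In this class the values with clusters weighted alike equalled the ratios of the Vcan Chil3 cluster alone. They repeat that result and are not a separate check. In that cluster the Nos2 ratio was 1.78 and the Saa3 ratio 2.18 without the top cell of each library. In neutrophils Acod1 read 0.22 as a mean over cells and 0.36 scaled to the median gene, and Nos2 read 1.11 at resolution 2, where 13 WT UMIs fell in that class. The CKO level of Nos2 was 308 CPM with members kept for clustering and 239 with cells called by their own markers. Leaving out the Inhba Cfb and the Prg4 Serpinb2 cluster was chosen after seeing the data. The causes were not tested beyond the cell counts given. The Arg1 ratio of the monocyte and macrophage class has no finite value, so no alternative ratio is given. Its bound was 2.10-fold without the top CKO cell. Under every class setting the WT class held 0 Arg1 UMIs and the CKO class 219 to 232. The bound was not computed without the Prg4 Serpinb2 cluster. Every other CKO cluster of the class was at 14.8 CPM or less, under the WT floor of 15.6 CPM. No paired analysis was possible because each group has 1 library. The 21 WT monocyte and macrophage cells limit every ratio of that class.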
